A study of Homo sapiens with 12 samples.

Results

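The decoy sequence, named hs37d5 in the coordinates used here, held 16486 of the 1019951 CCGG sites that had a tag in at least 1 of 12 HELP-tagging libraries. Every site placed on that sequence was taken, whatever its count, so no measured value chose the members. The DNA was that of lines labelled 786 and 769, both from clear cell carcinoma of the kidney. Some of it came after treatment with ascorbic acid (AA, vitamin C), which can raise the activity of TET enzymes. These enzymes oxidise methylated cytosine. The groups were 786 with AA (2 DNA samples, replicates 1 and 2), 786 control (1 DNA sample), 769 with AA (2 DNA samples, replicates 1 and 2) and 769 control (1 DNA sample). From each DNA sample 1 library was cut with HpaII and 1 with MspI. The labels give neither a dose nor a time, and nothing in them says that the AA replicates were separate cultures, so p-values measure the spread between these samples, which may be technical. The question the design puts is whether AA changes cytosine modification in these cells.

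A decoy is a string of human sequence that is missing from the numbered chromosomes of the reference assembly and is added so that reads from it have a place to align. Its pieces are joined end to end, so sites that are neighbours on the decoy need not be neighbours in a genome, and much of it is repeats and satellite arrays. In normal cells such repeats are heavily methylated, and cancer cells often lose part of that methylation. HpaII cuts CCGG only where the inner cytosine is unmodified, while MspI cuts it in either state. A low HpaII share relative to the MspI share therefore reads modified sites, and dividing by MspI takes out how many copies of a sequence the cells carry. No gene annotation of the decoy was used here, and the decoy sequence itself was not analysed here, so sites are named by their position on hs37d5 and no repeat family is given.

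The libraries held between 189704 and 12442031 tags, of which between 1760 and 188509 fell on the decoy. A pair of HpaII libraries stood apart. The 786 control HpaII library had 189704 tags and listed 587 decoy sites. The 769 control HpaII library was deep, with 5734607 tags, but listed 1166 decoy sites, against 4028 and 1807 in the 769 AA HpaII libraries, and over the whole genome it listed 107494 sites, against 279974 and 136539 with AA. Each comparison with a control rests on 1 of these libraries.

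Sites on the decoy were dense and often shared their tags. From its first listed site at position 1043 to its last at 35458839 the decoy held 32365 reference CCGG sites, or 91.3 per 100 kb, against 77.3 per 100 kb on chromosomes 1 to 22 and X. In any library 50.9% of the reference sites of the decoy were listed, against 43.7% of those of the chromosomes. HpaII tags were found at 9413 decoy sites and MspI tags at 15603, and 883 sites had HpaII tags and no MspI tag. HpaII tags were present in all 6 HpaII libraries at 124 sites, MspI tags in all 6 MspI libraries at 2421, and 3221 sites were listed in 1 library only.

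Counts that are not whole arise where a tag aligned to several places was divided between them. Such counts were found in at least 1 library at 70.9% of decoy sites, against 12.4% of chromosomal sites. In the HpaII libraries between 23.9% and 37.3% of decoy tags lay at sites whose count was not whole in that library, and in the MspI libraries between 37.3% and 44.2%. Of 7813 such sites with at least 5 tags, 4481 (57.4%) had the same 12 counts as another site, 4007 with a partner on the decoy and 754 with a partner on chromosomes 1 to 22 and X. These made 1754 sets of decoy sites with identical counts, the largest of 8 sites. Members of a set may be the same tags divided between places, which was not checked.

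Distances were measured between neighbouring reference sites that were both listed. Such sites lay closer on the decoy, and some distances recurred. The median was 92 bases over 12043 decoy distances, against 112 bases over 642224 on the chromosomes. Distances to sites without a tag were left out, so these values are not those of the whole sequence. The commonest distance on the decoy, 59 bases, was found 208 times. That is 1.73% of these decoy distances against 0.554% of chromosomal ones. A distance of 30 bases was found 29 times inside the single 100 kb window that starts at 15300001, and one of 27 bases 19 times in the window from 13200001.

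By summed tags, HpaII cut the decoy less, relative to MspI, than the chromosomes in all 6 DNA samples. Decoy sites took 0.993%, 1.07% and 0.928% of HpaII tags in 786 AA replicate 1, 786 AA replicate 2 and 786 control. In 769 AA replicate 1, 769 AA replicate 2 and 769 control they took 0.711%, 0.663% and 0.603%. The MspI shares, in the same order, were 1.32%, 1.42% and 1.38% in 786 and 1.49%, 1.55% and 1.52% in 769. Counted per 100 kb, HpaII libraries gave the decoy 0.950, 0.974 and 0.914 times the tags of the chromosomes in 786 and 0.659, 0.645 and 0.570 times in 769, while MspI libraries gave it between 1.19 and 1.41 times. The widest counting error belonged to the shallow 786 control HpaII library, whose 0.928% had a 95% Wilson interval of 0.886% to 0.972%, and such intervals cover counting error only, since the protocol has no molecular identifiers.

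The HpaII share over the MspI share was 0.755 and 0.750 in 786 AA and 0.673 in 786 control, and 0.478 and 0.428 in 769 AA and 0.398 in 769 control. On chromosomes 1 to 22 and X together the same quotient lay between 0.933 and 0.990. Those chromosomes held between 84.5% and 93.5% of the tags of each library, so division by library totals holds their quotient near 1. The decoy value is therefore relative to them. The quotient averaged 0.580 ± 0.164 on the decoy and 0.955 ± 0.021 on the chromosomes (SD, n = 6 each). The decoy was lower in 6 of 6 samples, by a mean log2 difference of −0.77 ± 0.41 (SD), a fold of 0.587. An exact two-sided sign-flip permutation test over the 6 samples gave p = 0.0312, the smallest it can give, and 0.0625 after adjustment over 6 such comparisons. No single chromosome lay below the decoy in 5 of the samples; in 786 AA replicate 1 chromosome 19, at 0.746, did. Against unplaced contigs the decoy was lower in 5 of 6 samples (exact permutation p = 0.0625). A single contig carried much of the unplaced value in 769: without it the contigs were at 0.981 and 0.985 in 786 AA and 1.40 in 786 control, and at 0.613 and 0.481 in 769 AA and 0.481 in 769 control. The decoy lay below them in all 6 samples, and they showed the same order of the lines.

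**Figure D1:**
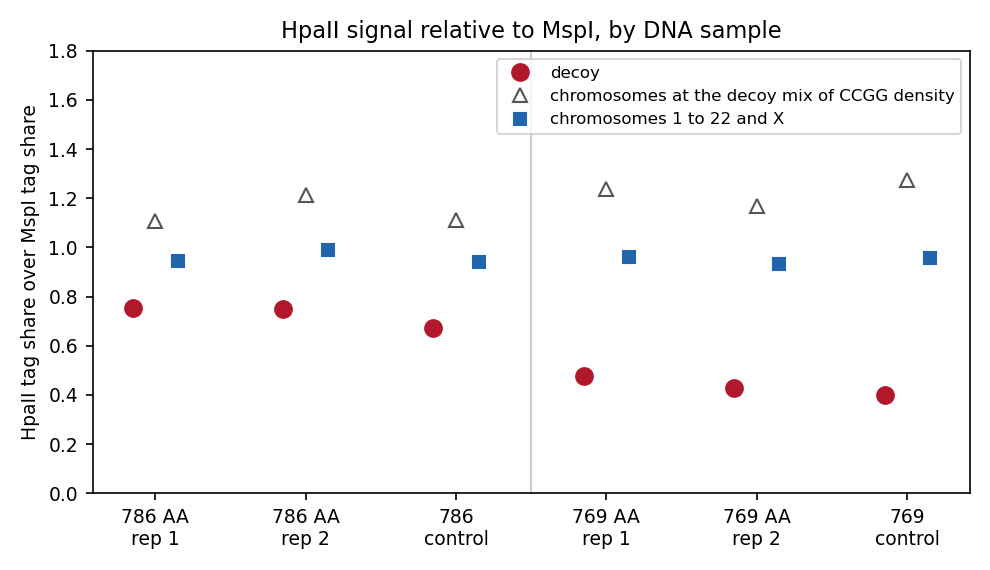
HpaII tag share over MspI tag share (y axis) in each of the 6 DNA samples (x axis) for the decoy, for chromosomes 1 to 22 and X weighted to the decoy mix of CCGG density, and for the chromosomes as they are, 1 point per sample and set of sites. The decoy points lie between 0.398 and 0.755, below both chromosomal points in every sample, and the 786 samples lie above the 769 samples.

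The gap was widest in CCGG-dense sequence. Sites were grouped by the number of reference CCGG sites within a window of 1 kb, where clusters on chromosomes are mostly CpG islands, which are usually unmethylated. At sites with 1 to 2 in 1 kb the decoy and the chromosomes did not differ beyond the spread between samples (fold 1.03, exact sign-flip permutation p = 0.562), and at 3 to 7 in 1 kb the fold was 0.877 (p = 0.25, same exact test). In that class the lines differed in direction, with the decoy at 1.06, 1.05 and 1.07 times the chromosomes in the 786 samples and at 0.768, 0.757 and 0.654 times in the 769 samples. At 8 to 15 in 1 kb the decoy was lower in 6 of 6 samples with a fold of 0.367, and at 16 or more it was lower in 6 of 6 with a fold of 0.278; each had an exact permutation p of 0.0312 and 0.0625 after adjustment. In 769 control the quotient at 16 or more sites in 1 kb was 0.545 on the decoy and 3.78 on the chromosomes, and in 786 AA replicate 1, the sample with the smallest gap, it was 1.12 on the decoy and 2.13 on the chromosomes. The quotient was higher in the densest than in the sparsest class in every sample, by a smaller factor on the decoy than on the chromosomes. Weighted to the decoy mix of density classes, the chromosomes would have given between 1.11 and 1.28.

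**Figure D2:**
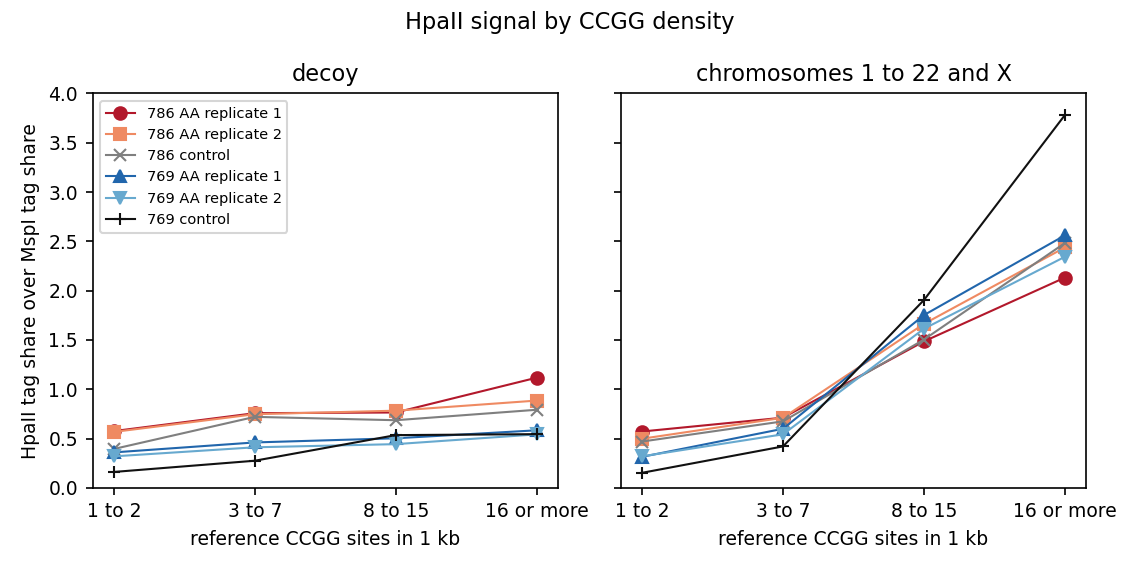
HpaII tag share over MspI tag share (y axis) by number of reference CCGG sites in 1 kb (x axis), on the decoy (left) and on chromosomes 1 to 22 and X (right), 1 line per DNA sample. In the densest class the decoy values lie between 0.542 and 1.12 and the chromosomal values between 2.13 and 3.78.

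Sites with divided tags read lower than sites with their own tags. The 4798 decoy sites whose counts were whole in all 12 libraries had quotients of 0.860 and 0.845 in 786 AA, 0.775 in 786 control, 0.640 and 0.596 in 769 AA and 0.616 in 769 control. The 11688 other decoy sites had 0.700 and 0.702 in 786 AA, 0.619 in 786 control, 0.395 and 0.341 in 769 AA and 0.285 in 769 control. Both kinds lay below their chromosomal counterparts in all 6 samples, and the sites with divided tags were lower than the others in all 6. Among 362 decoy sites with at least 10 MspI tags in every MspI library, 95 (26.2%) had a quotient under 0.1 in all 6 samples, against 39.4% of chromosomal sites of that depth, and 4 (1.10%) were at 1 or more in all 6, against 1.76%. Their median quotient in 786 AA was 0.201 and 0.278, against 0.060 and 0.091 on the chromosomes, so by that median the decoy stood higher. In 769 AA it was 0.031 and 0, against 0.030 and 0, and in both controls it was 0 on the decoy and the chromosomes. In 786 AA, 23.5% and 26.8% of these decoy sites were at 1 or more, against 27.0% and 29.9% of chromosomal ones.

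Windows of 100 kb showed how uneven the decoy is. Of 355 windows up to the last listed site, 337 held a listed site and 241 had enough tags to test, with 98.6% of decoy HpaII tags and 98.7% of decoy MspI tags. The median quotient of these windows was 0.729 and 0.715 in 786 AA and 0.514 in 786 control, and 0.340 and 0.235 in 769 AA and 0.0990 in 769 control. Tested chromosomal windows had medians of 0.915 and 1.01 in 786 AA, 0.509 in 786 control, 0.879 and 0.683 in 769 AA and 0.565 in 769 control, so in the shallow 786 control the medians of decoy and chromosomal windows were alike. Of the 241 decoy windows, 81 and 67 were at 1 or more in 786 AA and 57 in 786 control, against 25 in each 769 AA sample and 29 in 769 control. Over the 241 windows Spearman's rho between samples was 0.459 for the 786 AA pair and 0.600 for the 769 AA pair. Between AA and control of a line it was 0.320 and 0.272 in 786 and 0.468 and 0.513 in 769, and it lay between 0.190 and 0.467 for pairs across the lines; windows share libraries and depth, and these values are a description.

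**Figure D3:**
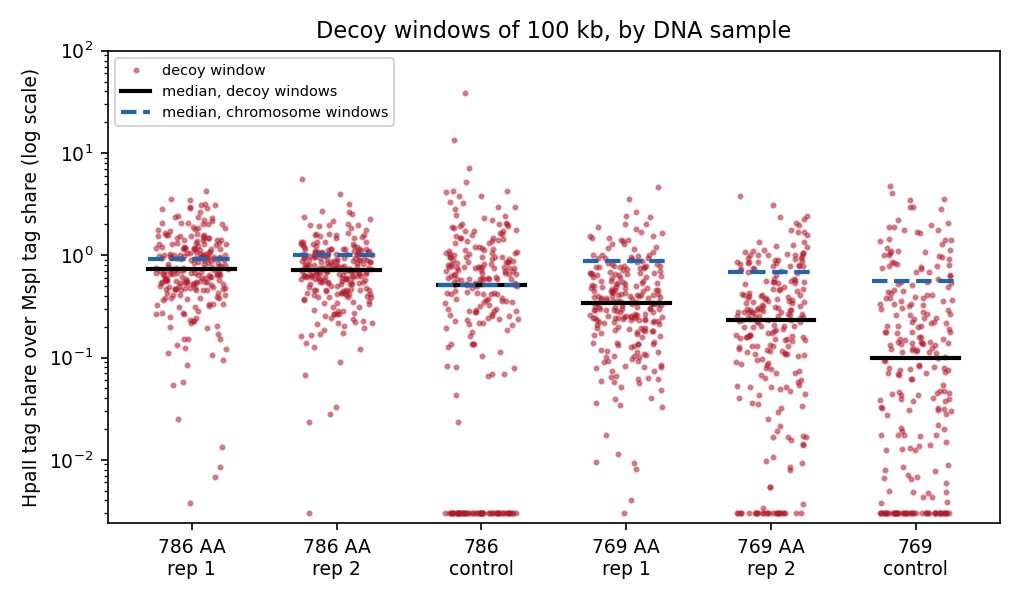
HpaII tag share over MspI tag share (y axis, log scale) of the 241 tested decoy windows of 100 kb in each DNA sample (x axis), 1 point per window, with values under 0.003 drawn at 0.003. The black line is the median of decoy windows, 0.729 in 786 AA replicate 1 and 0.0990 in 769 control, and the dashed line the median of chromosomal windows.

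In a fit of HpaII against MspI over all windows, 69 of 241 decoy windows passed an adjusted p of 0.05 by edgeR's quasi-likelihood test, 3 higher and 66 lower for HpaII. That is 28.6%, near the 29.7% of all 15938 tested windows, but the directions differed: 27.4% of decoy windows were lower, against 19.5% of all, and 1.24% were higher, against 10.2% of all. The median log2 fold change was −1.46 over decoy windows and −0.49 over all. This order depends on the filter on low counts. With no filter the medians were −1.52 over 332 decoy windows and −1.74 over all, so the order turned. Leaving out 769 AA replicate 1 gave 28 windows and leaving out 769 AA replicate 2 gave 33. DESeq2 gave 162 decoy windows, 160 of them lower, among 7949 windows in all.

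The 10 windows with most MspI tags held 30.8% of decoy HpaII tags and 24.8% of decoy MspI tags, and a single one led them. The window from 7300001 to 7400000 held 14.8% of decoy HpaII tags and 8.22% of decoy MspI tags on average. Nearly all lay in 4795 bases, from 7361135 to 7365929, with 34 reference CCGG sites of which 33 were listed and 27 had at least 200 MspI tags. MspI tags per reference site were there between 58.6 and 67.5 times the decoy mean in the 786 samples and between 84.7 and 96.9 times in the 769 samples. This stretch, and the boundaries inside it, were chosen after its values were seen, and they are a description with no test.

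Within that stretch HpaII signal was near 0, high and near 0 again along the sites. At 14 sites from 7361135 to 7363472 the quotient over the 6 samples lay between 0 and 0.080, and at the site at 7362362 there were 43 HpaII tags, against 8970 MspI tags, over 6 libraries each. The next 11 sites, from 7364240 to 7365356, had quotients between 1.36 and 3.26, and the site at 7365303 had 6902 HpaII tags and 6413 MspI tags. At 7365862 and 7365929 the quotients were 0.057 and 0.020. No site with at least 200 MspI tags lay in the 768 bases between the last low and the first high site.

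This order was the same in every DNA sample. Summed over the 11 high sites and the other listed sites among them, the quotient was 1.29 and 2.39 in 786 AA and 1.57 in 786 control, and 2.16 and 2.45 in 769 AA and 2.75 in 769 control. Over the low sites before them it was 0.0023 and 0.0028 in 786 AA and 0 in 786 control, and 0.011 and 0.024 in 769 AA and 0.0050 in 769 control. The 1117 bases of high sites gave 5.99%, 6.79% and 6.19% of all decoy HpaII tags in 786 AA replicate 1, 786 AA replicate 2 and 786 control. In 769 AA replicate 1, 769 AA replicate 2 and 769 control they gave 17.6%, 21.9% and 28.3%. The share was higher in every 769 sample than in every 786 sample.

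**Figure D4:**
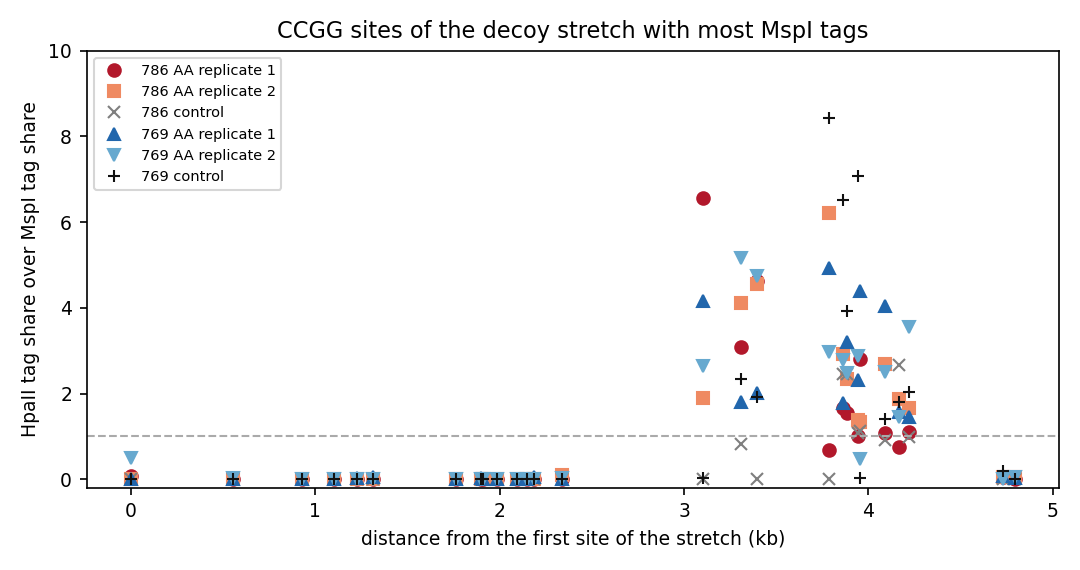
HpaII tag share over MspI tag share (y axis) at 27 CCGG sites against the distance from the first of them in kb (x axis), 1 symbol per DNA sample; the dashed line marks equal shares. The 11 sites between 3 and 4.3 kb carry almost all of the HpaII signal, although single sites among them lie near 0 in the controls, and the sites before and after them lie near 0, except the first site in 769 AA replicate 2 and the site at 4.73 kb in 769 control, at 0.200.

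The other windows with many MspI tags differed among themselves. The window from 18800001 had quotients of 1.02 and 1.16 in 786 AA, 0.847 in 786 control, 0.420 and 0.251 in 769 AA and 0.125 in 769 control. The window from 30700001 had 0.604 and 0.637 in 786 AA, 0.552 in 786 control, 1.21 and 1.34 in 769 AA and 1.17 in 769 control, so the lines stood in the opposite order there. In the window from 100001, also among the 10 with most MspI tags and low in every sample, 13 sites over 912 bases, from 132189 to 133100, held nearly all tags. Summed over these bases there were 97 and 20 HpaII tags in 786 AA and 0 in 786 control, and 14 and 1 in 769 AA and 2 in 769 control, against 938 to 2875 MspI tags per library. The quotient was 0.058 and 0.023 in 786 AA, 0 in 786 control, 0.0096 and 0.0012 in 769 AA and 0.0015 in 769 control. Nearly all counts in this window were whole, with 0.163% of MspI tags at divided sites, and HpaII against MspI stood at −6.47 ± 0.66 on the log2 scale (SE; edgeR adjusted p = 1.35e-04). The largest fall, −7.22 ± 1.47 (edgeR adjusted p = 0.0057), was in the window from 17900001, which ranked 165 by MspI share, where 1.4 and 20.2 HpaII tags were found in 786 AA and 0 in each of the other 4 samples.

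The window from 9800001 held the decoy site with the highest mean MspI share, at 9804217, and 99.4% of its MspI tags were divided with other places. Of its 5 sites with at least 200 tags, 4 stood higher with AA than in control in 769 and 1, at 9804217, lower. At 9803401 the quotient was 0.117 and 0.207 in 786 AA and 0 in 786 control, and 0.601 and 0.675 in 769 AA and 0.023 in 769 control. At 9803754 the quotient was 0.211 and 0.122 in 786 AA and 0.268 in 786 control, and 0.636 and 0.536 in 769 AA and 0.072 in 769 control. At 9804217 it was 0.222 and 0.188 in 786 AA and 0.161 in 786 control, and 0.151 and 0.104 in 769 AA and 0.238 in 769 control.

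HpaII exceeded MspI past the threshold in 3 windows. The window from 10200001 had quotients of 1.48 and 3.18 in 786 AA, 3.79 in 786 control, 2.38 and 3.81 in 769 AA and 3.47 in 769 control, and HpaII exceeded MspI by 1.52 ± 0.33 on the log2 scale (SE; edgeR adjusted p = 0.0075). The window from 34900001 had 2.66 and 4.02 in 786 AA, 1.71 in 786 control, 3.58 and 1.05 in 769 AA and 4.78 in 769 control, a log2 fold change of 1.44 ± 0.39 (edgeR adjusted p = 0.0195). The third, from 400001, had a log2 fold change of 0.70 ± 0.23 (edgeR adjusted p = 0.0418). Every sample was at 1 or above in the first and second; the third had 1 sample, 769 AA replicate 2, just below 1, at 0.989. The call at 34900001 was lost without 769 AA replicate 1 (edgeR adjusted p = 0.0806), without 786 AA replicate 1 (0.0546) or without 786 AA replicate 2 (0.0653), and the call at 400001 was lost without any 1 sample except 769 AA replicate 2. At 400001, where 88.7% of MspI tags lay at divided sites, it was also lost with DESeq2 (adjusted p = 0.0841), no filter (0.0583), thinning (0.076) and whole counts (log2 fold change 0.38, adjusted p = 0.768).

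With AA the decoy quotient was slightly higher than in control in both lines. It averaged 0.752 ± 0.0032 in 786 AA (SD, n = 2) and was 0.673 in 786 control, a fold of 1.12, and it averaged 0.453 ± 0.036 in 769 AA (SD, n = 2) and was 0.398 in 769 control, a fold of 1.14. All 4 AA samples lay above the control of their line. Over both lines the log2 difference was 0.17, and permuting treatment within lines gave an exact p of 0.111, the smallest that 9 arrangements allow, so this design cannot reach 0.05. With sites whose counts were whole in each library alone the fold was 1.01 (exact permutation p = 1), and with mitochondrial tags as the denominator the direction turned, to a log2 difference of −1.41 (exact permutation p = 0.222). The mitochondrial quotient was between 1.98 and 4.35 in 5 samples and 0.364 in 769 control.

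By density class the AA fold was highest at isolated sites. At 1 to 2 sites in 1 kb the quotient was 0.575 and 0.567 in 786 AA and 0.394 in 786 control, and 0.359 and 0.319 in 769 AA and 0.161 in 769 control, a fold of 1.75. At 3 to 7 sites the fold was 1.29, at 8 to 15 it was 0.998 and at 16 or more 1.14. The exact permutation p was 0.111, 0.111, 1 and 0.333 for the 4 classes in that order, and 0.222, 0.222, 1 and 0.444 after adjustment over them. On the chromosomes the isolated sites had quotients of 0.571 and 0.498 in 786 AA, 0.470 in 786 control, 0.314 and 0.320 in 769 AA and 0.152 in 769 control. The difference between classes was not tested.

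Window by window, no decoy window passed the threshold for AA against control over both lines by edgeR, against 0.333% of all windows, 0.314% higher and 0.0188% lower. At an unadjusted p under 0.05 there were 36, or 14.9% against 11.8% of all windows, and DESeq2 called 11, all higher with AA, among 589 windows in all. The median log2 fold change was 0.95 over decoy windows and 0.55 over all. Without 769 control, which leaves 786 alone to bear on AA, these medians were 0.65 and 0.995, in the opposite order. Both AA ratios lay above the control in 143 of 241 decoy windows in 786 and in 129 in 769, which is 59.3% and 53.5%, against 58.8% and 38.2% of chromosomal windows. Without 786 control, which leaves 769 alone to bear on AA, 25 decoy windows were called among 649 in all. Without 786 AA replicate 1 there were 6 among 215, and without 786 AA replicate 2 there were 4 among 218. The smallest p belonged to the window from 34500001, with quotients of 0.936 and 1.94 in 786 AA and 0.069 in 786 control, and 0.355 and 0.555 in 769 AA and 0.0020 in 769 control (edgeR adjusted p = 0.0609).

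In 769 alone 26 decoy windows passed, all higher with AA. That is 10.8% of those tested, against 4.03% of all windows, of which 3.78% were higher and 0.245% lower, and the median log2 fold change was 1.19 over decoy windows and 0.37 over all. In these 26 windows the median HpaII count was 226 and 71 tags in the AA libraries and 6.75 tags in the control, while the median MspI count was 400.3 and 284 tags with AA and 1078 tags in the control. The control had under 1 HpaII tag in 8 of them and at least 10 in 13. A window of the latter kind, from 21900001, had 70.3 HpaII tags in 769 control. Its quotients were 0.379 and 0.245 in 769 AA and 0.054 in 769 control (edgeR adjusted p = 0.0069). The 769 control HpaII library listed fewer decoy sites than either AA library, as given above, and its part in these calls was not tested. With all libraries thinned to the smallest of their enzyme, 2 windows were called, of 175 that could be tested.

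By size of change, an order that puts windows with few control tags first, the window from 5500001 led this list. HpaII tags numbered 113 and 99.6 in 769 AA and 0 in 769 control, against 87.5 and 38.7 MspI tags with AA and 533 in control. Set against a floor of 3 tags in the control library, the quotient was higher with AA by at least 145-fold, with an edgeR adjusted p of 0.0103. In 786 the same window had quotients of 0.951 and 0.460 with AA and 0.162 in control, the last from 1 tag. The windows from 32600001, 32900001, 34500001 and 18900001 followed. By the same geometric mean and floor they were at least 53.3-fold, 39.0-fold, 25.1-fold and 21.8-fold higher with AA in 769. Their edgeR adjusted p-values were 0.0301, 0.0230, 0.0134 and 0.0313. All 4 had 0 to 0.3 HpaII tags in 769 control, and between 31 and 126 in the AA libraries. In 769 AA replicate 2 a single site held 78.6%, 100%, 46.8% and 69.4% of the HpaII tags of these 4 windows, and 87.3% of those from 5500001. With sites of whole counts alone the calls at 34500001 (edgeR adjusted p = 0.0835) and 18900001 (0.702) were lost, and with thinned libraries those at 5500001, 32600001, 32900001 and 34500001 (edgeR adjusted p between 0.169 and 0.5).

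In 786 alone no decoy window was called by edgeR, against 0.408% of all windows, 0.125% higher and 0.282% lower. Among decoy windows 16 had an unadjusted p under 0.05, or 6.64% against 12.7% of all windows, and DESeq2 called 0. The median log2 fold change was 0.65 over decoy windows and 0.97 over all. The control library limits this comparison, since the median tested decoy window had 3.5 HpaII tags in it and 56 windows had 0. The smallest p was in the window from 27100001, which was lower with AA, with quotients of 0.242 and 0.895 in 786 AA and 38.4 in 786 control, the last from 39.2 tags at 1 site (edgeR adjusted p = 0.154). For a higher value with AA it was in the window from 3700001, with 849 and 139 HpaII tags in 786 AA and 0 in 786 control (edgeR adjusted p = 0.216).

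The AA effect differed between the lines in 5 decoy windows, by the test of the difference itself, which is 2.07% of those tested against 1.3% of all windows. All 5 were lower for 786 minus 769, as were 0.941% of all windows, while 0.358% of all were higher, and all 5 were among the 26 called in 769. The median log2 difference, 786 minus 769, was 0.095 over the tested decoy windows and 0.84 over all, so the decoy median was not below 0. In the window from 31800001 the quotient was 1.16 and 0.996 in 786 AA and 4.24 in 786 control, the last from 23 tags, and 2.02 and 1.19 in 769 AA and 0.033 in 769 control. Its log2 difference was −7.47 ± 1.36 (SE; edgeR adjusted p = 0.0201). The next window on the decoy, from 31900001, stood at −4.98 ± 1.11 (edgeR adjusted p = 0.0442), and the window from 31500001 at −4.76 ± 0.93 (edgeR adjusted p = 0.0242). Without 769 AA replicate 1 there were 2 such windows, without 769 AA replicate 2 there was 1, and without 786 AA replicate 2 there were 8. The window from 31800001 kept its call in the 10 alternatives run with windows of 100 kb. The calls at 31500001, 31900001 and 21700001 were lost in 2, 4 and 5 of the alternatives. The call at 34200001 was lost in 4, and in 1 more the sign of its difference turned.

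Decoy quotients were higher in every 786 sample than in every 769 sample. The quotient averaged 0.726 ± 0.046 in 786 and 0.435 ± 0.041 in 769 (SD, n = 3 each), a fold of 1.67 and a log2 difference of 0.74, and the samples did not overlap. Exact permutation of the line labels gave p = 0.1, the smallest that 20 arrangements allow. On chromosomes 1 to 22 and X the means were 0.958 ± 0.028 in 786 and 0.951 ± 0.016 in 769. Division by library totals holds these means near 1, so they cannot show whether the lines differ on the chromosomes. Each density class showed the same order on the decoy, with folds of 1.91, 1.99, 1.51 and 1.66 for the 4 classes from sparse to dense. Chromosomal sites showed that order too in the sparse classes. At 1 to 2 sites in 1 kb they had quotients of 0.571, 0.498 and 0.470 in the 786 samples and 0.314, 0.320 and 0.152 in the 769 samples, and at 3 to 7 sites 0.712, 0.711 and 0.674 in the 786 samples and 0.599, 0.543 and 0.420 in the 769 samples. In the classes of 8 or more sites the chromosomal values of the lines overlapped. The difference between the decoy and the chromosomes in this contrast was not tested. Without the window from 7300001, where 769 had the higher quotients, the fold over the decoy was 1.98, an alternative chosen after the data were seen.

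In 90 of 241 decoy windows (37.3%) all 3 samples of 786 lay above all 3 of 769, against 9.61% of chromosomal windows, and in 6 (2.49%) all 3 lay below, against 6.76%. The fit called 14 windows, all higher in 786, which is 5.81% of those tested against 1.23% of all windows, of which 1.09% were higher and 0.138% lower. The median log2 fold change of HpaII relative to MspI was 1.55 over decoy windows and 0.13 over all. The count rests on a few libraries: it was 0 without 769 AA replicate 2, with a decoy median of 1.34, and 5 without 786 control. With a term for the label number it was 31, although those numbers were not found to pair the samples, and DESeq2 gave 58, of which 55 were higher, among 1413 windows in all. With sites of whole counts alone, 2 of 141 tested decoy windows were called, among 228 windows in all. The median log2 fold change was then 2.32 over decoy windows and 0.12 over all.

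In the window from 19600001 the quotients were 0.850 and 0.725 in 786 AA and 0.768 in 786 control, and 0.135 and 0.067 in 769 AA and 0.032 in 769 control, so that 786 was higher by 3.41 ± 0.58 on the log2 scale (SE; edgeR adjusted p = 0.0121). The 786 samples lay together, the 769 samples ran from 0.032 to 0.135, and the lines lay far apart. The window from 26500001 had 0.905 and 0.530 in 786 AA and 1.03 in 786 control, and 0.057 and 0.0097 in 769 AA and 0.044 in 769 control, at 4.53 ± 0.87 (edgeR adjusted p = 0.0205). The window from 25800001 had 0.550 and 0.557 in 786 AA and 0.589 in 786 control, and 0.089 and 0.016 in 769 AA and 0.0078 in 769 control, at 4.25 ± 0.83 (edgeR adjusted p = 0.0233). Between 84.1% and 87.0% of the MspI tags of these 3 windows lay at sites that share tags with other places. The calls at 19600001, 26500001 and 25800001 were lost in 2, 1 and 3 of the alternatives.

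A window whose tags were almost all its own showed the same contrast. From 31900001 to 32000000, with 1.01% of MspI tags at divided sites, the quotient was 1.19 and 1.01 in 786 AA and 1.33 in 786 control, and 0.232 and 0.155 in 769 AA and 0.0067 in 769 control. The log2 fold change was 3.73 ± 0.81 (SE; edgeR adjusted p = 0.04), and the call was lost without 769 AA replicate 1 (0.0707), 769 AA replicate 2 (0.226) or 786 control (0.0578). The site at 31987974 had 370 and 158 HpaII tags in 786 AA and 3 in 786 control, and 3 and 0 in 769 AA and 0 in 769 control, while its MspI tags numbered 15, 57 and 83 in the 786 samples and 63, 20 and 168 in the 769 samples. At 31991722, which is 3.75 kb from it, no sample had more than 2 HpaII tags, with 41 to 173 MspI tags per library.

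The largest fold change between the lines, 8.09 ± 1.78 in the window from 27100001 (SE; edgeR adjusted p = 0.0431), rested on few tags. There were 6.5 and 22.2 HpaII tags in 786 AA and 39.2 in 786 control, the last all at 1 site in a library of 189704 tags, and 3.5 and 0 in 769 AA and 1 in 769 control. Its call was lost without 786 control (edgeR adjusted p = 0.215), 769 AA replicate 2 (0.234) or 769 control (0.0970). MspI tags in the same window numbered 15, 40.8 and 49.9 in the 786 samples and 155, 174 and 365 in the 769 samples.

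**Figure D5:**
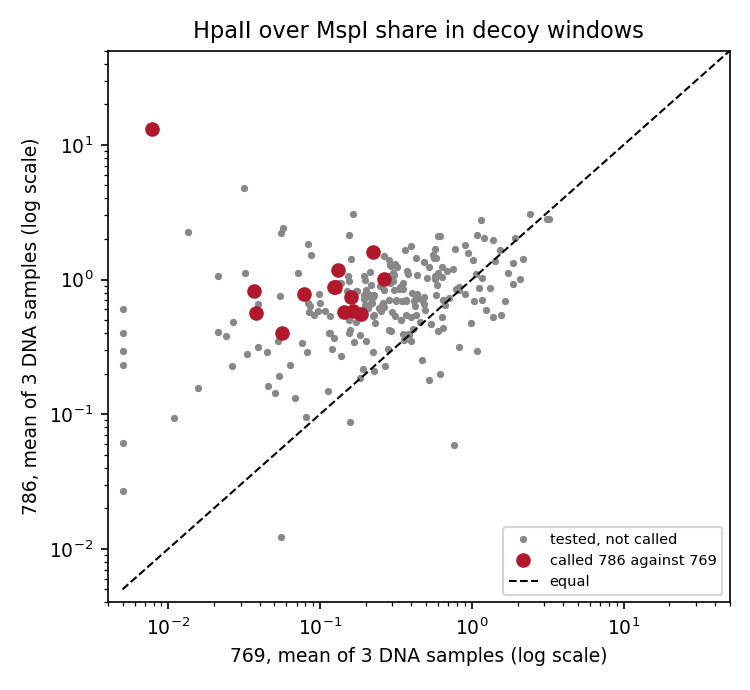
Mean HpaII tag share over MspI tag share of 3 DNA samples of 786 (y axis) against the mean of 3 DNA samples of 769 (x axis), both on a log scale with values under 0.005 drawn at 0.005, 1 point per tested decoy window. The 14 windows called between the lines lie above the line of equal values, and the bulk of the other windows lies above it too.

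MspI alone, which reads how much DNA of a site was present and recovered, differed little between the lines. The decoy share of MspI tags averaged 1.37% ± 0.054 in 786 and 1.52% ± 0.032 in 769 (SD, n = 3 each), a fold of 0.904, and the samples did not overlap (exact permutation p = 0.1, the smallest possible). Of 244 decoy windows tested for MspI, 6 passed, 2 higher and 4 lower in 786, which is 2.46% against 3.66% of all windows, 1.97% higher and 1.7% lower. The window from 7300001 was lower in 786, by −0.58 ± 0.10 on the log2 scale (SE; edgeR adjusted p = 0.0011), in all 12 alternatives run with windows of 100 kb. Lower too were the windows from 27100001, at −2.85 ± 0.52 (edgeR adjusted p = 0.0020), and 16100001, at −2.26 ± 0.42 (0.0028). The window from 13200001, where the 27-base spacing of listed neighbours is commonest, was higher in 786. It had 175, 472 and 348 MspI tags in the 786 samples and 75.9, 59.0 and 137 in the 769 samples. Its log2 fold change was 1.78 ± 0.41 (edgeR adjusted p = 0.0132). That call was lost without any 1 sample except 786 AA replicate 1 (edgeR adjusted p between 0.0699 and 0.181). The count of windows was 2 without 769 control or without 769 AA replicate 2 and 3 without 769 AA replicate 1 or without 786 control.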

How the data were processed

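HELP-tagging ligates adapters to HpaII or MspI ends, cuts a short tag beside each CCGG site with EcoP15I and amplifies it in 18 PCR cycles, per the labels' protocols. The deposited files give expected counts of tags at each site, on its left, on its right and summed; the authors state a total per library that the counts add up to, so they were not normalized. Coordinates are of hg19 with the decoy added, per the submitters' processing notes and the contig names; the aligner was not given in the sources used here.

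Summed tags were divided by the library total and the HpaII share by the MspI share. Reference sites were counted from the consecutive number each site carries in the files, so density is a lower bound. A count was called whole within 1e-06. Tags were summed in windows of 100 kb on all contigs, rounded, and kept with at least 10 MspI tags in each MspI library and 10 HpaII tags over the 6 HpaII libraries. edgeR 4.0.16 (R 4.3.3), with TMM within each enzyme, fitted quasi-likelihood models. HpaII against MspI was fitted over 12 libraries with terms for DNA sample and enzyme. For AA and the lines, terms for enzyme by line and by treatment, or by treatment within each line, were added. MspI between the lines was fitted over the 6 MspI libraries, with the MspI filter alone and terms for treatment and line. The p-values were adjusted over all tested windows by Benjamini-Hochberg. Single controls are assumed to vary like the other samples, with 3 residual degrees of freedom (2 in the fit by line, 5 for HpaII against MspI). SE is the log2 fold change over the square root of F. Thinning, DESeq2 1.42.0, no filter, windows of 20 kb, whole counts, a replicate block and leaving out each sample were the alternatives. In the fits by line only AA samples were left out, since each line has 1 control. The window test was tested on simulated data. Python 3.11.15, numpy 2.4.6, pandas 2.3.3, scipy 1.17.1 and matplotlib 3.10.9 were used.

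Windows named are the 10 with most MspI tags, the up to 5 largest changes each way past the threshold, or the 2 of smallest p where none passed; of these the ones with informative tags are printed. The members and tests were chosen with earlier results of these data known. Sites within windows were chosen after their values were seen.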

Additional observations from a re-analysis of the deposited data

Results flagged for a closer look

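The AA effect on HpaII relative to MspI differed between the lines, by the test of the difference in 1 fit over all windows, in 5 decoy windows. That is 2.07% of those tested, against 1.3% of all windows. The log2 difference, 786 minus 769, was −9.65 in the window from 34200001, −7.47 from 31800001, −4.98 from 31900001, −4.76 from 31500001 and −4.72 from 21700001 (edgeR adjusted p between 0.0201 and 0.0442). In each of them 769 control had between 0.1 and 13.5 HpaII tags, and 786 control between 13.8 and 23. In the window from 34200001 the quotient was 0.712 and 1.02 in 786 AA and 1.47 in 786 control, and 0.232 and 0.223 in 769 AA and 0.0006 in 769 control. In the window from 21700001 it was 1.15 and 0.730 in 786 AA and 0.601 in 786 control, and 0.344 and 0.175 in 769 AA and 0.0050 in 769 control. At 34200001, 85.7% of MspI tags lay at divided sites, and the sign of the difference turned with whole counts. Only the call at 31800001 held in all 10 alternatives run with windows of 100 kb. The part that the 2 control libraries play in these differences was not tested.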

How the results depend on the processing

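By summed tags the decoy stayed below the chromosomes in every alternative tried. The log2 difference lay between −1.08 (chromosomes at the decoy mix of density) and −0.56 (whole counts). Without single DNA samples it ran from −0.857 to −0.668 with an exact permutation p of 0.0625, the smallest that 5 samples allow. AA against control over the decoy was higher in all alternatives (0.013 to 0.286; 0.132 to 0.213 without single samples) except with mitochondrial tags as denominator, where it was −1.41; the cause was not tested. The difference between the lines ran from 0.664 to 1.017, and with samples paired by treatment and number in a replicate block it was 0.743 (exact permutation p = 0.25, the smallest possible). No paired analysis was possible because controls carry no number for AA over the decoy.

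Counts of decoy windows moved more. They are not shares, since the windows tested changed too. In fits of HpaII relative to MspI, decoy windows tested were 241 in the main setting, 141 with whole counts and 175 with thinning. With no filter they were 332, in windows of 20 kb 419, and with DESeq2 for AA in 786 they were 96. Calls over all windows moved as well. With DESeq2 they went from 4736 to 7949 for HpaII against MspI and from 642 to 2280 for AA in 769. For 786 against 769 they went from 196 to 1413. HpaII against MspI called 69 windows, 162 with DESeq2, 28 with whole counts, 67 with no replicate block and 28 to 62 without single samples. AA over both lines called 0, but 11 with DESeq2, 10 with no filter, 2 in windows of 20 kb, 7 with a replicate block and 0 to 25 without single samples. AA in 769 called 26, against 52 with DESeq2, 2 with thinned libraries, 16 in windows of 20 kb and 40 with the block. Without single AA samples its decoy median log2 fold change ran from 0.792 to 1.579. The fits by line were not run without either control, since each line has 1. AA in 786 called 0, with 1 lower window under no filter and 1 with thinning. The difference between the lines in AA effect called 5, with 2 under library totals, 28 with DESeq2, 14 with no filter, 3 with thinning, 0 in windows of 20 kb, 17 with the block and 1 to 8 without single samples. For 786 against 769, 14 became 58 with DESeq2, 36 with no filter, 2 with whole counts, 31 with the block and 0 to 20 without single samples. MspI between the lines called 6, against 12 with DESeq2, 3 in windows of 20 kb, 2 with whole counts and 2 to 7 without single samples. Label numbers were not found to pair the samples: the difference between AA replicates 1 and 2 correlated over windows between the lines at −0.0073 (all windows) and −0.096 (decoy windows), so the block results are counts only.

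Among single windows, whole counts turned the AA difference at 34200001 to 6.35 and MspI between the lines at 19800001 to −0.81. Depth limits the 786 control most, and the 769 control listed few sites. Divided tags limit where a signal lies.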
